A study of Rattus norvegicus with 11 samples.

Results

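Complement is a cascade of blood and tissue proteins that marks microbes and damaged cells and draws in leukocytes. The classical pathway starts when the C1 complex of C1q, C1r and C1s cleaves C4 and C2, the alternative pathway uses factor B (Cfb), and both converge on the cleavage of C3, which releases the small fragment C3a and deposits C3b. C1 inhibitor (Serping1) and factor I (Cfi) restrain the cascade, and the receptors C3ar1 and C5ar1 carry the signals of C3a and C5a into cells, chiefly those of the myeloid lineage. Most circulating complement is made in the liver, and epithelial and stromal cells of the gut also transcribe several of these genes.

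The levels of 9 complement genes were examined in the ileum of rats with severe acute pancreatitis (SAP), with or without JZL184. The genes were taken by symbol (C3, Cfb, C2, C1r, C1s, Serping1, Cfi, C3ar1 and C5ar1), and all 9 were found among the 24481 genes with read counts and the 24205 genes with FPKM. There were 3 control, 4 SAP and 4 JZL184 libraries of ileal RNA from Sprague-Dawley rats of 6 to 8 weeks, described as male in the methods. SAP was produced with sodium taurocholate, a bile salt, given at 3% and 0.1 ml per 100 g into the pancreatic duct. JZL184, which blocks the enzyme MAGL and thereby the breakdown of the endocannabinoid 2-AG, was given to SAP rats at 10 mg/kg into the peritoneum 24 h after surgery, and the tissue was taken 24 h later. Control and SAP rats received the vehicle of saline, ethanol and Tween-80 at the same time, so that all 3 groups share the injection, and what surgery the control rats had is not stated. The sample labels name a control plasmid in the control group and oil in the SAP group, which differs from that description.

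Between 26341299 and 33847135 reads per library lay on genes. The reads of control libraries 1 and 2 were nearly alike, with a chi-square per gene of 2.81 where the remaining pairs within groups gave 77.48 to 563.03. They were counted as 1 sample, which leaves n = 2 for control. Within SAP, libraries 1 and 2 gave 85.46 and libraries 3 and 4 gave 99.08, while the pairs across gave 337.01 to 563.03. The paper also describes its SAP samples as divided into 2 groups in a heat map. SAP was nevertheless tested as 1 group, so its spread includes this split. Pairs of JZL184 libraries gave 115.21 to 405.79. The labels do not say which rat gave which library, so that p-values measure the spread between these samples. SAP library 2 held 20 reads on Y-linked genes, where the other libraries held 1222 to 4665, and 7826 reads on Xist, where the others held at most 56, so it goes against the male rats of the methods. Where a test or an extreme value rests on this library, the value without it is given too. The labels call the cells intestinal epithelial cells, yet smooth muscle markers summed to between 375 and 2140 FPKM beside enterocyte markers at 4900 to 39900 FPKM, so the libraries also hold RNA of other layers of the gut wall. In such bulk samples, fewer cells of a type and less RNA per cell cannot be told apart.

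Bases upstream of the transcription start are shown for 3 members that differ in how they varied. C3 is the hub of the cascade and varied widely between libraries, C1r varied least, and C3ar1 is a receptor. The promoter table matched 4 of the 9 members, Cfi being the other. Each sequence runs from 120 bases before the start annotated by RefSeq on GRCr8 to the last base before it, 5′ to 3′ on the strand of the gene. Capitals mark a match to a motif on either strand.
C3, chr9:2201340-2201459, minus strand: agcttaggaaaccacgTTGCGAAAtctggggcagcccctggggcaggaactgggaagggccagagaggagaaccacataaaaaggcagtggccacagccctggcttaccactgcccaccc
C1r, chr4:159098893-159099012, plus strand: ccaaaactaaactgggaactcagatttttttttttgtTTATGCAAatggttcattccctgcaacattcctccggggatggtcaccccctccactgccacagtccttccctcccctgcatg
C3ar1, chr4:157756531-157756650, minus strand: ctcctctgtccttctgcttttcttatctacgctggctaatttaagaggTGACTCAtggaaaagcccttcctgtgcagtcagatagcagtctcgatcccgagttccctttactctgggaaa
The capitals in C3 (bases -104 to -97) and C1r (bases -83 to -76, on the opposite strand) match the C/EBP motif TTGCNNAA, which 10.6% of 33469 rat promoters of 300 bases also hold. Those in C3ar1 (bases -72 to -66) match the AP-1 motif TGANTCA, held by 7.33% of the promoters. The STAT motif TTCNNNGAA, found in 8.87% of promoters, and the NF-κB motif, found in 7.51%, were in none of the 4 windows of the members. The motifs do not overlap in these windows, and a match is a description of letters, not a binding site.

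In control ileum the 9 genes spanned a wide range of FPKM, a measure of reads scaled for the length of the transcript and the size of the library. C1r, the protease that activates C1s, was the highest of the 9 in each control library, at 34.75, 36.85 and 35.41 FPKM. Serping1 and Cfi followed at 27.7 ± 8.30 and 22.3 ± 3.46 FPKM (SD, n = 2), with overlapping control values, and those of Cfi also overlapped with C1s at 17.1 ± 4.39. C2 (9.03 ± 0.792), Cfb (4.28 ± 0.354) and C3 (3.66 ± 0.499) came next, and C3 and Cfb met, with C3 at 4.04 FPKM in control library 1 and Cfb at 4.03 FPKM in control library 3. C5ar1, at 0.473 ± 0.0530 FPKM, and C3ar1, at 0.0800 ± 0.0141 FPKM, had rank 8 and rank 9 in all 11 libraries. The order changed above them: Cfb had rank 6 in every control library and in SAP library 2, rank 1 or 2 in SAP libraries 1, 3 and 4, and rank 3 or 4 in the JZL184 libraries.

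**Figure D1:**
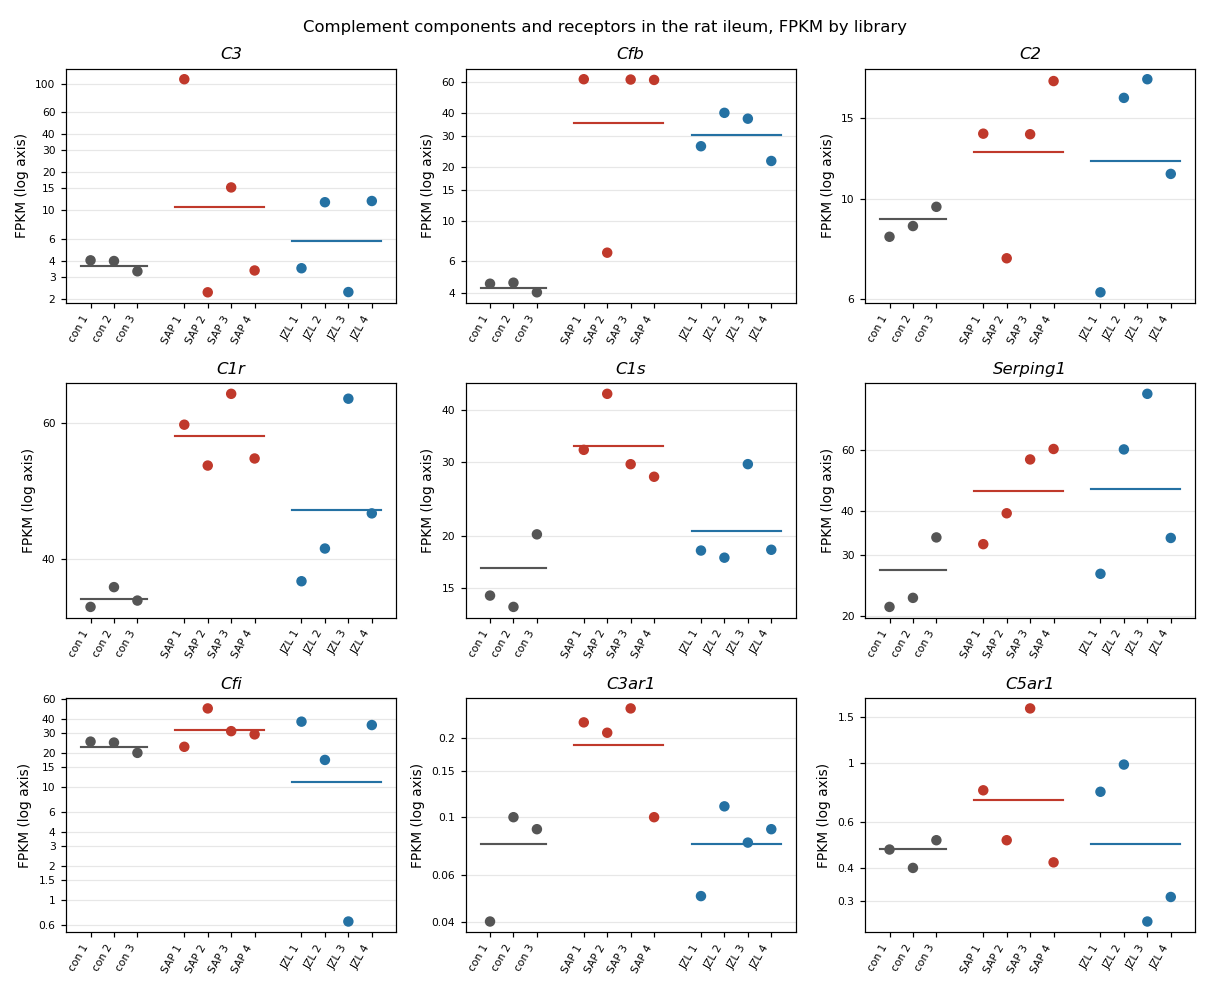
FPKM on a log axis (y) of the 9 complement genes in each library (x), with control in grey, SAP in red and JZL184 in blue, and the geometric mean of each group as a line (control libraries 1 and 2 as 1 sample). Cfb was above its control values in all SAP and JZL184 libraries, with SAP library 2 at 6.70 FPKM, while C3 was far above the rest in SAP library 1 (108.46 FPKM) and Cfi was at 0.64 FPKM in JZL184 library 3.

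Cfb was the member that differed most from control in both treated groups. Factor B supplies the protease of the alternative pathway C3 convertase, which amplifies the deposition of C3b. Its level was 4.50, 4.56 and 4.03 FPKM in the control libraries. In SAP it was 61.98, 6.70, 61.72 and 61.42 FPKM, and in JZL184 it was 26.24, 40.27, 37.36 and 21.72 FPKM. Every SAP and JZL184 value lay above every control value, and 3 of the SAP values lay between 61.42 and 61.98 FPKM while SAP library 2 was close to the controls. The JZL184 values lay between that library and the other SAP libraries.

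C3 showed another pattern, with large differences between libraries of the same group. Control libraries held 4.04, 3.99 and 3.31 FPKM. SAP libraries held 108.46, 2.26, 15.19 and 3.36 FPKM, and JZL184 libraries held 3.50, 11.61, 2.27 and 11.87 FPKM. The highest and lowest C3 values were 48.0-fold apart, and both were SAP libraries, so the groups overlapped. With SAP library 2 set aside, the lowest value was that of JZL184 library 3, at 2.27 FPKM. The ratio of C3 to Cfb within a library was 0.821 to 0.898 in control, 0.0547 to 1.75 in SAP and 0.0608 to 0.547 in JZL184, so the genes did not keep the ratio they had in control ileum.

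C2, which in the classical pathway holds the place that factor B holds in the alternative pathway, differed less. It was at 8.24, 8.70 and 9.59 FPKM in control, at 13.89, 7.39, 13.85 and 18.13 FPKM in SAP and at 6.22, 16.65, 18.30 and 11.33 FPKM in JZL184. SAP library 2 and JZL184 library 1 lay below the controls and the other 6 treated libraries lay above them. C2 and Cfb are adjacent genes in the RefSeq gene order and related proteases. Within a library, Cfb was 0.546, 0.524 and 0.420 of C2 in control, whereas the ratio was 4.46, 0.907, 4.46 and 3.39 in SAP and 4.22, 2.42, 2.04 and 1.92 in JZL184. All 8 treated libraries were above the control ratios, including SAP library 2, so the pair did not move in proportion.

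**Figure D2:**
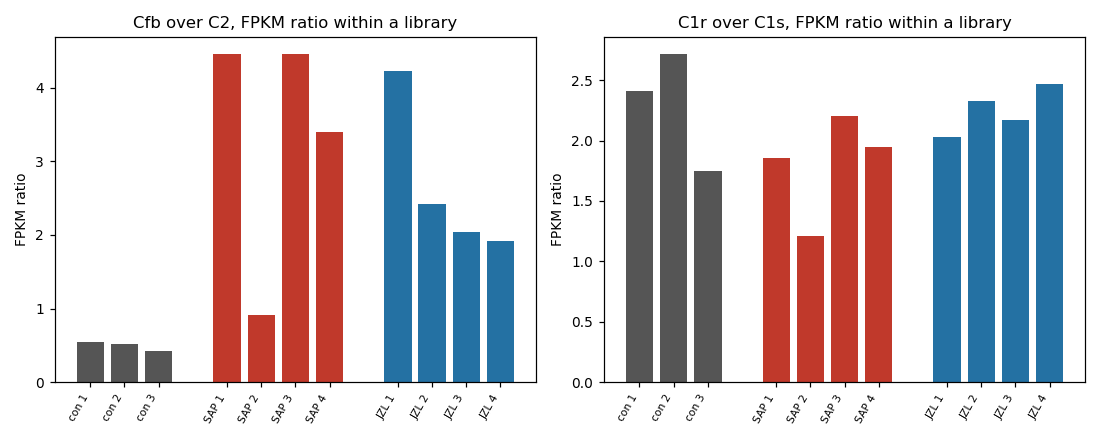
FPKM ratio within each library (y, linear from 0) for the adjacent gene pairs Cfb over C2 (left) and C1r over C1s (right), with libraries along x, control in grey, SAP in red and JZL184 in blue. Cfb over C2 was at most 0.546 in control and at least 0.907 elsewhere, while C1r over C1s stayed between 1.21 and 2.72 with the groups overlapping.

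C1r varied least of the members, with a highest value 1.88 times its lowest. It was at 59.66, 52.85, 65.38 and 53.97 FPKM in SAP and at 37.50, 41.32, 64.44 and 45.86 FPKM in JZL184. All SAP values were above the control values, and so were the JZL184 values, though JZL184 library 1 (37.50 FPKM) was close to control library 2 (36.85 FPKM). C1s, which C1r activates and which cleaves C4 and C2, was at 14.41, 13.54 and 20.18 FPKM in control and at 32.12, 43.71, 29.68 and 27.70 FPKM in SAP. Its JZL184 values were 18.46, 17.75, 29.69 and 18.54 FPKM, of which 3 fell within the control range while JZL184 library 3 was among the SAP values. SAP library 2, the lowest SAP library in C3, Cfb and C2, was the highest of all libraries in C1s. C1r and C1s are adjacent genes, and their ratio stayed between 1.21, in SAP library 2, and 2.72 in all libraries, with 1.75 the lowest in the others.

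The inhibitors Serping1 and Cfi did not separate the groups. Serping1, which blocks C1r and C1s, was at 21.21, 22.52 and 33.61 FPKM in control, at 32.14, 39.44, 56.34 and 60.38 FPKM in SAP and at 26.41, 60.21, 87.02 and 33.49 FPKM in JZL184. The highest value was thus JZL184 library 3, and the lowest SAP and JZL184 values fell inside the control range. Factor I, the protease that inactivates C3b and C4b, was at 25.00, 24.52 and 19.87 FPKM in control, at 22.49, 49.15, 30.93 and 28.96 FPKM in SAP and at 37.54, 17.21, 0.64 and 35.03 FPKM in JZL184. JZL184 library 3 had 39 reads of Cfi, where the other 10 libraries had 1039 to 3266, and the range of Cfi over libraries was 76.8-fold against 1.88-fold for C1r. The highest Cfi value was that of SAP library 2, and without it the highest was 37.54 FPKM, in JZL184 library 1.

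The anaphylatoxin receptors were detected at low depth, with 10 to 71 reads per library for C3ar1 and 28 to 180 for C5ar1. C3ar1, the C3a receptor, was at 0.04, 0.10 and 0.09 FPKM in control, at 0.23, 0.21, 0.26 and 0.10 FPKM in SAP and at 0.05, 0.11, 0.08 and 0.09 FPKM in JZL184. The SAP libraries 1 to 3 were above all others, and SAP library 4 lay among the JZL184 values and equalled control library 2. C5ar1, the C5a receptor, was at 0.47, 0.40 and 0.51 FPKM in control, at 0.79, 0.51, 1.62 and 0.42 FPKM in SAP and at 0.78, 0.99, 0.25 and 0.31 FPKM in JZL184, and its groups overlapped.

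The comparison of SAP with control sets the ileum of rats with pancreatitis beside that of control rats. The surgery of the controls is not stated, so pancreatitis and the operation that produced it cannot be told apart. All 9 members had a higher mean in SAP, with a median log2 fold change of 0.66 where the median of all genes tested was 0.06 and 53.2% of them were higher. The largest log2 fold changes were those of Cfb (3.34, SE 0.92) and C3 (2.90, SE 1.57), followed by C3ar1 (1.16, SE 0.48), C1s (0.79, SE 0.30), C5ar1 (0.66, SE 0.59), Serping1 (0.63, SE 0.40), C1r (0.53, SE 0.27), C2 (0.42, SE 0.42) and Cfi (0.37, SE 0.36). A gene was called if its adjusted p was below 0.05 and its fold change exceeded 2 or was under 0.5. The quasi-likelihood test of edgeR called 0 of the 9 members, and 0 of the 16029 genes tested (0.0%), with an adjusted p of 0.459 for Cfb. At an unadjusted p below 0.05 edgeR gave 3 members, Cfb, C1s and C3ar1 (33.3% of the 9, where all genes gave 9.09%). DESeq2, the tool of the study, called 1 member, Cfb (adjusted p = 0.00188), where it called 208 of 16971 genes (1.23%), and limma-voom called 0 members and 14 genes.

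In Cfb, C1r, C1s and C3ar1, 4 of 9 members, all SAP samples were above both control samples, which was so for 13.4% of all genes tested. An exact permutation test of log2(FPKM + 1) gave p = 0.133 for each of them, the smallest value that 4 against 2 samples allow in this two-sided test, so no member could pass it. For C3ar1 the separation rests on averaging control libraries 1 and 2, since SAP library 4 and control library 2 were both at 0.10 FPKM. With the control libraries separate its exact permutation p was 0.114, where 4 against 3 samples allow 0.0571. Without SAP library 2, the log2 fold change of Cfb was 3.72 (adjusted p = 0.0513 in edgeR and 1.46e-21 in DESeq2). Without SAP library 1, that of C3 was 0.78.

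**Figure D3:**
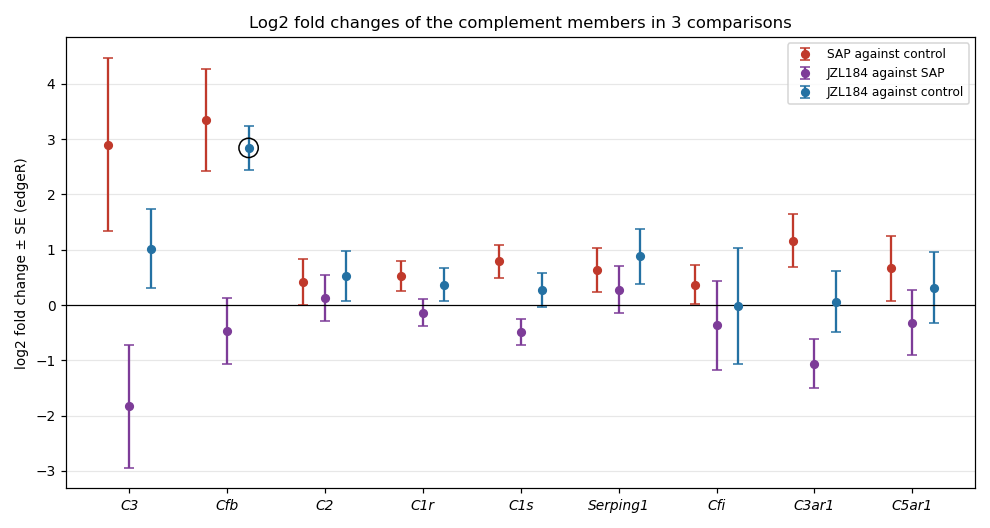
Log2 fold change from edgeR with an SE derived from its F statistic (y) of each member (x), for SAP against control in red, JZL184 against SAP in purple and JZL184 against control in blue, with a ring around the value that passed the thresholds. Only Cfb in JZL184 against control has a ring (2.84, SE 0.40), and the error bars of C3 are the longest in the comparisons with SAP.

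The comparison of JZL184 with SAP asks what the MAGL inhibitor changed in rats with pancreatitis. By the log2 fold change of edgeR, 7 of the 9 members were lower with JZL184, with a median of -0.37 beside -0.05 over all genes tested, of which 47.4% were higher. C3 (-1.83, SE 1.11) and C3ar1 (-1.06, SE 0.44) had the largest differences on the log2 scale, followed by C1s (-0.49, SE 0.24), Cfb (-0.47, SE 0.59), Cfi (-0.37, SE 0.81), C5ar1 (-0.32, SE 0.59) and C1r (-0.14, SE 0.24), while Serping1 (0.28, SE 0.42) and C2 (0.13, SE 0.42) were on the other side of 0. In mean FPKM, C2 was also lower with JZL184, at 13.1 against 13.3 FPKM. None passed the thresholds: edgeR called 0 of 9 members and 0 of 15308 genes (0.0%), with 1 member, C3ar1, at an unadjusted p below 0.05 (adjusted p = 0.207), which is 11.1% of the members where all genes gave 21.3%. DESeq2 called 0 members where it called 1283 of 18385 genes (6.98%), and limma-voom called 0 members and 699 genes. In no member were the SAP and JZL184 libraries apart, which they were in 11.2% of all genes tested.

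The exact permutation test, which with 4 against 4 samples can reach 0.0286, gave p = 0.0571 for C3ar1 and p = 0.0857 for C1s, and Cfb had p = 0.829. Without SAP library 2 the exact permutation p was 0.114 for C3ar1, 0.171 for C1s and 0.0571 for Cfb, the last being the smallest that 3 against 4 samples allow, since all 4 JZL184 values of Cfb were below the other SAP values. Without SAP library 1 the log2 fold change of C3 turned to 0.25.

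The comparison of JZL184 with control shows what remained different from control ileum in the treated SAP rats. Cfb was 7.18-fold higher (log2 fold change 2.84, SE 0.40, adjusted p = 0.0194 in edgeR), at 31.4 ± 8.84 FPKM (SD, n = 4) against 4.28 ± 0.354 (n = 2), and higher in 4 of 4 JZL184 libraries. It was the 1 member called, where edgeR called 343 of 15916 genes (2.16%). DESeq2 also called 1 member, Cfb (adjusted p = 5.25e-09), where it called 1899 of 17598 genes (10.8%). The edgeR call of Cfb was lost without JZL184 library 2 (adjusted p = 0.0540), without control libraries 1 and 2 (0.350), without control library 3 (0.173) and with all 3 groups in 1 fit (0.0794), while the log2 fold change stayed between 2.63 and 2.99 under 15 alternatives. With a control sample left out, the remaining control sample was assumed to vary like the JZL184 libraries.

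The other members did not pass in JZL184 against control, and their log2 fold changes were 1.02 (SE 0.72) for C3, 0.88 (SE 0.50) for Serping1, 0.52 (SE 0.45) for C2, 0.37 (SE 0.29) for C1r, 0.31 (SE 0.64) for C5ar1, 0.27 (SE 0.30) for C1s, 0.06 (SE 0.55) for C3ar1 and -0.02 (SE 1.05) for Cfi. The median of the 9 was 0.37 beside 0.08 over all genes tested. All JZL184 samples were above both control samples in Cfb and C1r, 2 of 9 members, and in 18.5% of all genes tested. With counts normalized by TMM in place of FPKM, this held for Cfb only. Comparisons that share the SAP or the control libraries are not independent of each other.

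The other genes of the pathway were taken from a list of 39, all of them in the files, of which 30 had enough reads for the test in each comparison. The 30 were not the same throughout. C5 was tested in SAP against control only, and Colec11 only in the comparisons with JZL184. In SAP against control, 18 of the 30 were higher, with a median log2 fold change of 0.26, and edgeR called 0. An unadjusted p below 0.05 was found for 6 of them (20%, where all genes gave 9.09%), and 2 passed in DESeq2, which called 1.23% of all genes. The smallest p-values were those of C1rl, a relative of C1r (log2 fold change 2.32, SE 0.61), C9, the pore-forming unit of the membrane attack complex (2.78, SE 0.84), and Itgax, a subunit of a receptor for cleaved C3b (1.43, SE 0.49), each with an adjusted p of 0.459 in edgeR. DESeq2 called C1rl (adjusted p = 0.0164) and C9 (adjusted p = 0.0212). C9 was at 0.13, 0.20 and 0.54 FPKM in control and at 4.50, 1.13, 1.15 and 3.59 FPKM in SAP. C1rl and Itgax were low, with C1rl at 0.04 to 0.23 FPKM in control and 0.56 to 0.90 in SAP. Itgax was at 0.10 to 0.15 and 0.18 to 0.62 FPKM.

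**Figure D4:**
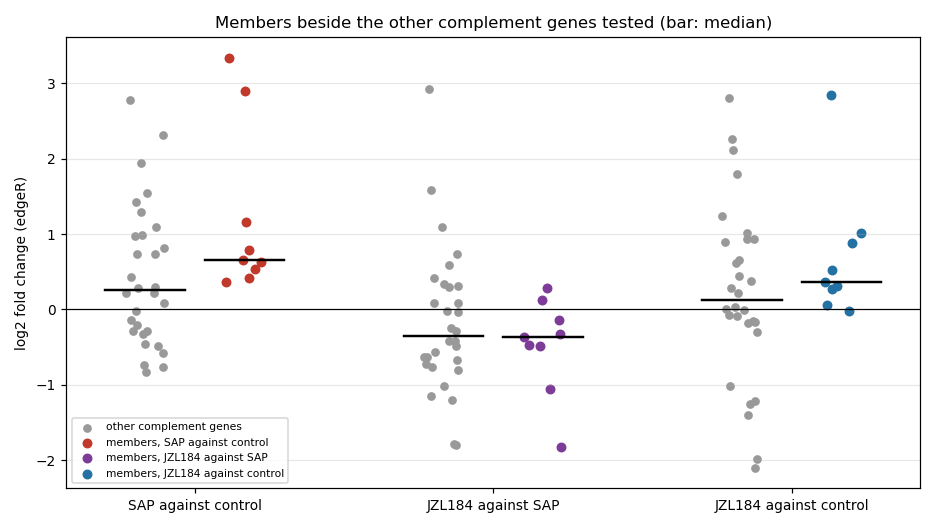
Log2 fold changes from edgeR (y) of the 9 members, in colour, beside the 30 other complement genes tested in each comparison (not all the same genes), in grey, for the 3 comparisons (x), with each median as a bar. The medians in SAP against control were 0.66 for the members and 0.26 for the other genes, and in JZL184 against SAP they were -0.37 and -0.35.

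In JZL184 against SAP, 11 of the 30 other complement genes were higher, the median log2 fold change was -0.35, edgeR called 0. An unadjusted p below 0.05 was found for 8 of them (26.7%, where all genes gave 21.3%), and 5 passed in DESeq2, which called 6.98% of all genes. The smallest p-values were those of C5ar2, the other receptor of C5a (-1.80, SE 0.40, adjusted p = 0.0856 in edgeR), and of the collectins Colec11 (2.93, SE 0.73, adjusted p = 0.0970) and Colec10 (-1.79, SE 0.48, adjusted p = 0.109). Both collectins were near the floor. Colec10 was at 0.01 to 0.20 FPKM over all libraries. Colec11 was at 0.02 to 0.19 FPKM in the control and SAP libraries and at 0.27 to 1.38 in the JZL184 libraries. C5ar2 was at 0.85, 1.39, 0.71 and 0.47 FPKM in SAP and at 0.28, 0.13, 0.20 and 0.25 FPKM in JZL184, so that the groups did not overlap.

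In JZL184 against control, 16 of the 30 were higher (53.3%, where all genes gave 54.0%). An unadjusted p below 0.05 was found for 9 of them (30%, where all genes gave 26.3%), and 5 passed in DESeq2, which called 10.8% of all genes. The quasi-likelihood test of edgeR called 1 of the 30, beside 2.16% of all genes, and this was Cd59, the membrane inhibitor of the attack complex (1.80, SE 0.34, adjusted p = 0.0413). Cd59 was at 60.57, 60.03 and 56.12 FPKM in control, at 150.00, 102.21, 63.04 and 123.39 FPKM in SAP and at 166.02, 186.96, 211.67 and 267.08 FPKM in JZL184, so that each JZL184 value was above each SAP value. Next came Cfp, or properdin, which stabilizes the convertase that holds factor B (-1.26, SE 0.33, adjusted p = 0.0738 in edgeR), Colec10 (-2.10, SE 0.62, adjusted p = 0.0913) and Colec11 (2.81, SE 0.84, adjusted p = 0.0947). Cfp and Cfb thus lay on opposite sides of control. Both collectins were at the low FPKM given above. C4a and C4b are near-identical copies whose reads counting can split, and their values (17.8 and 5.61 FPKM on average in control) are uncertain.

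Each member was also set beside the genes whose log2(FPKM + 1) was most like its own over 10 samples, among the 11091 or 11092 other genes with a mean FPKM of at least 1. These correlations describe samples of 3 groups and carry no test, and without SAP library 2 those of the genes named here were between 0.828 and 0.977. Cfb was most like the chemokine gene Ccl7 (Pearson r = 0.949), the glial gene Gfap (0.930) and the transcription factor gene Osr1 (0.913), and all 3 were also lowest of the treated libraries in SAP library 2. Cfi was most like Soat2 (0.978), which esterifies cholesterol, and Reep6 (0.975). Soat2 was at 0.81 FPKM in JZL184 library 3, where Cfi was at 0.64 FPKM, and between 38.46 and 207.45 FPKM in the other libraries.

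**Figure D5:**
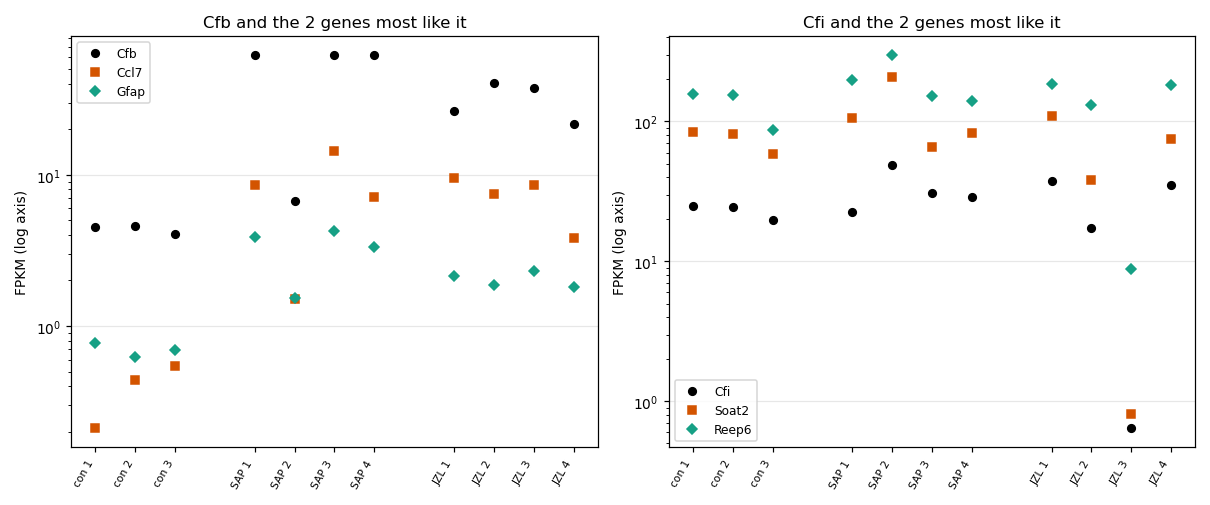
FPKM on a log axis (y) by library (x) of Cfb with Ccl7 and Gfap (left) and of Cfi with Soat2 and Reep6 (right), the 2 genes most correlated with each. SAP library 2 is the lowest treated library in the left panel, and JZL184 library 3 is far below the others in the right panel.

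C1s was most like Tek (0.942), an endothelial receptor, Clec4a3 (0.926) and Mnda (0.922), and C1r was most like Igfbp7 (0.902), Plekha4 (0.889) and Camlg (0.886). C3ar1 was most like Gpatch2l (0.919), Mmp19 (0.908) and the macrophage scavenger receptor Msr1 (0.890), and C5ar1 was correlated with Sirpa (0.882) and Mapk7 (0.865). C3 was most like Duox2 (0.852), an epithelial oxidase, LOC102549342 (0.846) and the Y-linked gene Kdm5d (0.829). Each of these was highest in SAP library 1 (11.89, 4.13 and 6.73 FPKM), where C3 was at 108.46 FPKM, so the correlations lean on that library. C2 was most like Hoxb6 (0.882), Hsd11b2 (0.863) and Psmf1 (0.857), and Serping1 like Svbp (0.916), Rnaset2 (0.874) and again Hsd11b2 (0.873).

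Markers of cell types that could make these transcripts differed between the groups too. Macrophage markers, 8 of 8 in the files, summed to 82.2 to 116 FPKM in control, 72.6 to 162 in SAP and 59.2 to 115 in JZL184, and in SAP against control 7 of 8 had a higher mean with 0 called by edgeR, whereas in JZL184 against control 5 of 8 were higher and edgeR called 2. Aif1 was the largest part of that sum in every library (42.92 to 134.83 FPKM). Cd163 and Mrc1 were above every control value in all SAP and JZL184 libraries, and Csf1r was below them in all JZL184 libraries. Neutrophil markers, 8 of 8 in the files, summed to 12.2 to 12.4 FPKM in control, 18.3 to 87.8 in SAP and 17.9 to 269 in JZL184, with Mpo and Elane at most 0.56 and 0.27 FPKM in any library. Most of the control sum was Ncf1, at 9.88 to 11.14 FPKM. In JZL184 library 2, which had the highest sum, S100a8 and S100a9 were at 148.71 and 95.60 FPKM. Csf3r and Cxcr2 were at most 1.58 and 0.39 FPKM in any library. Of the neutrophil markers tested by edgeR, 5 of 7 were higher in SAP against control and 5 of 6 in JZL184 against control, with 0 called. Fibroblast markers, 8 of 8, summed to 82.4 to 106 FPKM in control, 78.3 to 173 in SAP and 52.6 to 87.3 in JZL184, and in JZL184 against control 3 of 8 had a higher mean and edgeR called 2. Endothelial markers, 8 of 8, summed to 26.3 to 29.1 FPKM in control, and the sum was higher in every SAP (34.9 to 42.9) and JZL184 library (31.9 to 44.4). By edgeR 7 of 8 were higher in SAP and in JZL184 against control, with 0 called. Emcn was lower in every JZL184 library, at 1.88 to 3.82 FPKM against 4.15 to 5.00 in control. Enterocyte markers, 7 of 8 in the files, summed to 39600 to 39900 FPKM in control, 10500 to 24600 in SAP and 4900 to 20300 in JZL184, with the lowest sum in JZL184 library 3, the library in which Cfi was at 0.64 FPKM. By edgeR 1 of 7 was higher in SAP against control and 2 of 7 in JZL184 against control, with 0 called in either. In JZL184 library 3, Fabp6, Fabp2, Krt20, Vil1 and Alpi were below their control values. Epcam (3248.56 FPKM) was there within its control range of 3094.72 to 3813.60, and Cdh1 (157.50) above its range of 105.02 to 117.73. The part of these shifts in the levels of the complement genes was not tested. The defining liver gene Alb was at most 0.33 FPKM in any library, while Fga, another gene of the hepatocyte list, was at 0.55 to 0.69 FPKM in control, at 3.50 to 39.68 FPKM in SAP and at 54.01, 14.97, 0.36 and 44.76 FPKM in JZL184. The rest of that list did not share these levels. Fgb, Fgg, Ttr and Serpina1 were at most 0.41, 0.40, 0.36 and 0.94 FPKM in any library, and Apoh at most 3.97 FPKM.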

How the data were processed

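Stranded mRNA libraries of rat ileum were sequenced on an Illumina instrument. After trimming with FASTX-Toolkit, the authors aligned the reads to mRatBN7.2 with HISAT2 and deposited the count of uniquely aligned reads of each gene, without normalization. The authors also deposited FPKM, with 2 decimals. Neither the counting tool nor the annotation is given in the sources used here, and reads of antisense or overlapping genes may be shared.

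Reads of control libraries 1 and 2 were summed and their FPKM averaged. Groups were compared in pairs with edgeR 4.0.16 in R 4.3.3 (quasi-likelihood test, TMM, filterByExpr with a minimum count of 10, Benjamini-Hochberg over all genes tested), tested on simulated data. The simulation changed 200 genes 4-fold with a dispersion set far below that estimated from these data. It therefore does not show which changes the test can find here. DESeq2 1.42.0, limma-voom with quality weights (limma 3.58.1) and other settings were alternatives. FPKM were compared as log2(FPKM + 1) with two-sided exact permutation tests (scipy 1.17.1). The 9 genes, the list of 39 other complement genes (of which those called, or else the 3 with the smallest p per comparison, are named) and the marker lists were chosen with earlier results of these data known. A fold change from edgeR compares mean counts after TMM and can differ from that of FPKM. The quasi-likelihood test prints no SE. Each SE given here is the absolute log2 fold change divided by the square root of the F statistic of that test. Of the 3 genes most like each member, some are not reported here. Replicate numbers did not pair the libraries. Motifs were searched in 300 bases around RefSeq starts on GRCr8, and 0 columns of other samples were present.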

Additional observations from a re-analysis of the deposited data

Results flagged for a closer look

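In 3 of the 18 sets of 4 SAP or JZL184 values of the members, a library lay far from the other 3 of its group, by a gap larger than Dixon's 95% critical value of 0.829 of the whole range. Chance sets apart about 1 in 20 groups. C3 was at 108.46 FPKM in SAP library 1, a gap of 0.878 of the range. Cfb was at 6.70 FPKM in SAP library 2, a gap of 0.990, the library whose sex-linked reads go against the methods. C1s was at 29.69 FPKM in JZL184 library 3, a gap of 0.934.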

How the results depend on the processing

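In SAP against control, where edgeR called 0 genes, the count was 208 with DESeq2, 1434 with DESeq2 and control libraries 1 and 2 separate, 147 with DESeq2 without SAP library 2, 4 with all 3 groups in 1 fit, 33 with the control libraries separate, 14 with limma-voom, 14 with no filter on low counts, 1 with the replicate block and 0 to 3 when a sample was left out (3 without SAP library 4). The members called were 1, Cfb, in each DESeq2 fit. In JZL184 against SAP, in place of 0, they were 1283 with DESeq2, 600 with DESeq2 without SAP library 2, 207 with all 3 groups, 34 with gene length offsets, 699 with limma-voom, 27 with no filter and 0 to 655 with a sample left out (655 without JZL184 library 1, 1 without SAP library 2), with 0 members called throughout. In JZL184 against control, in place of 343, there were 1899 with DESeq2, 3498 with DESeq2 and 2800 with edgeR on separate controls, 2906 with limma-voom, 929 with no filter, 1488 with the replicate block (1 member called) and 0 to 1867 with a sample left out (1867 without JZL184 library 1, 25 without 2, 860 without 3, 78 without 4, 0 without control libraries 1 and 2, 1 without control library 3). Members called there ranged from 0 to 1 with a sample left out and were 0 with all 3 groups in 1 fit, and 1 member in place of 2 did not overlap with TMM counts. The cause of these moves was not tested.

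Directions turned only for values that did not pass. In JZL184 against SAP, C3 was 0.25 without SAP library 1 (range with a library left out -2.22 to 0.25), C2 -0.08, -0.01 and -0.09 without JZL184 library 2, JZL184 library 3 or SAP library 2 (-0.09 to 0.39) and -0.10 in DESeq2 without SAP library 2, Serping1 -0.02 (-0.02 to 0.52) and Cfi 0.04 (-0.68 to 0.04) without JZL184 library 3, C5ar1 0.25 without SAP library 3 (-0.80 to 0.25), and Serping1 in FPKM -0.04 without SAP library 2. In JZL184 against control, Cfi was 0.08 with length offsets, 0.05, 0.39 and 0.21 without JZL184 library 2, JZL184 library 3 or control libraries 1 and 2 (-0.32 to 0.39), and 0.29 in FPKM without a log. C3ar1 was -0.19 and -0.02 without JZL184 library 2 or control libraries 1 and 2 (-0.19 to 0.29), and C5ar1 was -0.10 with limma-voom and -0.17 without JZL184 library 2 (-0.17 to 0.58). Every member stayed higher in SAP than in control under its 16 alternatives. The DESeq2 settings with separate controls and without SAP library 2, and the correlations without that library, were chosen after seeing the data. Replicate numbers gave no pairing, with correlations of same-numbered libraries from -0.45 to 0.12, and the block changed no call of a member. The receptors rest on few reads, so differences below their spread were not detectable at this depth.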

Other observations

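Within a library, C1r over Serping1, the protease beside its inhibitor, was 1.64, 1.64 and 1.05 in FPKM in control, 1.86, 1.34, 1.16 and 0.894 in SAP and 1.42, 0.686, 0.741 and 1.37 in JZL184. Values below 1 thus occurred in 1 SAP and 2 JZL184 libraries and in no control library, with overlap between the groups.

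The chains of C1q, which carries the C1r and C1s proteases, had these values. C1qa was at 243 ± 25.1 FPKM in control (SD, n = 2), 195 ± 75.1 in SAP (n = 4) and 106 ± 38.8 in JZL184 (n = 4), with a log2 fold change of -0.46 in SAP against control (adjusted p = 0.596 in edgeR) and of -1.21 in JZL184 against control (adjusted p = 0.113). C1qb was at 73.6 ± 5.87, 54.2 ± 22.6 and 59.4 ± 29.2 FPKM, with log2 fold changes of -0.58 and -0.30. C1qc was at 49.6, 49.7 and 44.2 FPKM on average, with log2 fold changes of -0.14 and -0.18. Their difference from C1r and C1s was not tested.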
